A study of Solanum lycopersicum with 8 samples.

Results

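AGO4A is a tomato gene of the Argonaute family, and its transcript was followed in mature leaf and in red ripe fruit of 4 tomato accessions that the labels call AV, TM, SK and RJ. The array holds 3 probes of AGO4A, all assigned through 1 RefSeq transcript, among 33750 non-control probes, and AGO4A is 1 of 1214 genes that could be named. The 8 arrays were 4 of whole leaf and 4 of whole fruit, with 1 of each tissue for every accession. Per the labels, AV came from RTGR at Hyderabad, TM from Kashmir, SK from Chatha and RJ from Rajouri in Jammu, and ripening progress and carotenoid content differed among them. No treatment or transgene is named, and the number of plants behind an array is not given in the sources used here. The p-values below therefore measure only the spread between these arrays, which may be technical. AGO4A was chosen by its measured fruit levels on these arrays, low in AV and high in TM. Levels among the fruit arrays are thus a description and carry no test.

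Argonaute proteins hold a small RNA and use it to find matching RNA or nascent transcripts. In Arabidopsis, members of the AGO4 group bind short interfering RNAs and guide DNA methylation to transposons and repeats, while AGO1 carries microRNAs and AGO2 acts in antiviral defence. In tomato, DNA methylation at many ripening genes falls while the fruit ripens, through the DNA demethylase DML2.

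The fruit level of AGO4A varied widely among accessions, while its leaf level hardly did when scaled to the array's own probes. Under scaling by spike-in RNA the leaf arrays were spread over 1.61 on the log2 scale. Levels are log2 signals minus the 75th percentile of the array, so that a lower number is a dimmer probe relative to the same array. Of the 3 probes, A_96_P009996 was well above background on all 8 arrays, and its values stand for the gene. The other probes, A_96_P222409 and A_96_P222879, were well above background on 0 arrays, and did not pass the filter for testing. No AGO4A spot was saturated or marked as an outlier, and each probe had 1 spot on an array.

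In fruit, the processed signal of A_96_P009996 was 668 ± 110 in AV, 1450.3 ± 175 in SK, 3810 ± 393 in RJ and 4173 ± 421 in TM (arbitrary units ± the error that the scanner software gives for the spot). After scaling, the AGO4A level was -2.63 in AV fruit, -1.64 in SK fruit, -0.28 in RJ fruit and 0.42 in TM fruit. AV fruit was the lowest and TM fruit the highest of the fruit arrays, which were spread over 3.06 on the log2 scale, or 8.32-fold. In tissue samples such as these, fewer cells of a type that expresses the gene and less transcript per cell cannot be told apart.

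In leaf, the processed signal of the same probe was 5189.6 ± 571 in AV, 3657 ± 399 in TM, 8022 ± 896 in SK and 2859.97 ± 325 in RJ. Scaled to the array, the leaf level of AGO4A was -0.78 in AV, -0.80 in SK, -1.06 in TM and -1.14 in RJ. The leaf arrays thus lay within 0.37 on the log2 scale, or 1.29-fold, and all 4 lay between the SK and RJ fruit arrays in this scaling. TM leaf was 0.29 below AV leaf, where TM fruit was 3.06 above AV fruit. The mean was -0.95 ± 0.19 in leaf and -1.03 ± 1.37 in fruit (log2 level, SD, n = 4 each).

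**Figure D1:**
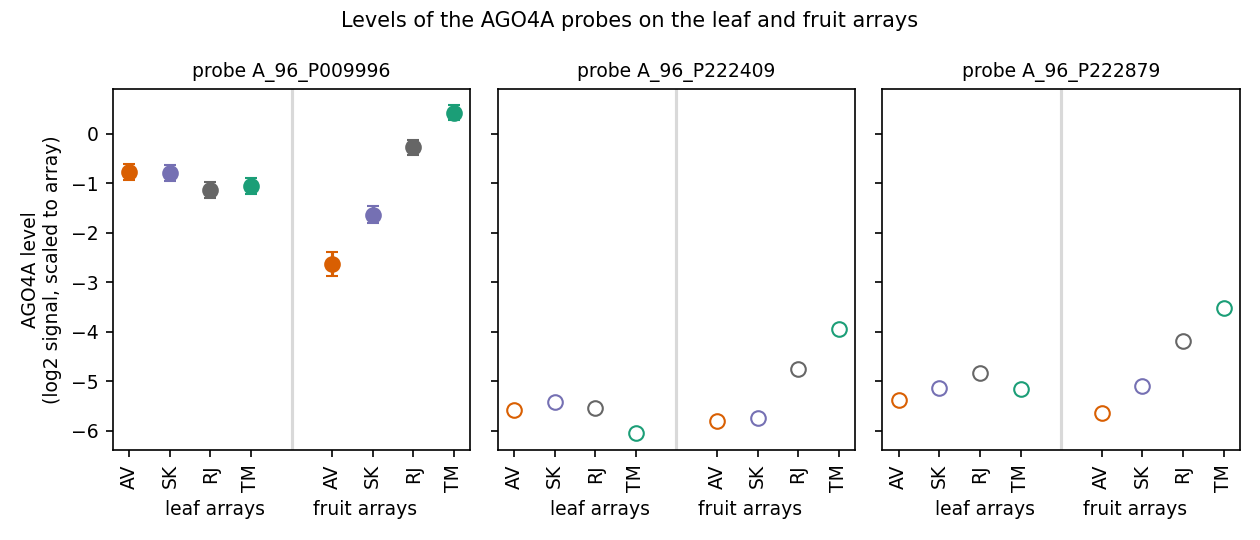
Levels of the 3 AGO4A probes (log2 signal scaled to the array, vertical axis) on the leaf and fruit arrays of AV, SK, RJ and TM (horizontal axis). Filled points were well above background and carry the software's error as a bar, and open points were not. A_96_P009996 ran from -2.63 in AV fruit to 0.42 in TM fruit and stayed between -1.14 and -0.78 in leaf.

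The order of the 8 arrays from high to low was TM fruit, RJ fruit, AV leaf, SK leaf, TM leaf, RJ leaf, SK fruit and AV fruit. The place of the leaf arrays in it turned with the scaling. Under scaling by spike-in RNA the order was SK leaf, AV leaf, TM fruit, TM leaf, RJ fruit, RJ leaf, SK fruit and AV fruit, with SK leaf at -0.52, AV leaf at -1.01, TM fruit at -1.35 and RJ fruit at -1.91. The order among leaf arrays changed with the deposited values too, where TM leaf was highest at 0.23 and RJ leaf lowest at -0.07. With 1 array for each tissue of an accession, the only error of a single level is that of the spot, and it does not include the spread between plants. Among the leaf arrays the gap was 0.02 between AV and SK leaf (combined error 0.23), 0.26 between SK and TM leaf (0.23) and 0.08 between TM and RJ leaf (0.23). The gap between SK and TM leaf was above the combined error of its spots, by a small margin. In fruit the gaps were larger, with 0.70 between TM and RJ (combined error 0.21), 1.36 between RJ and SK (0.23) and 1.00 between SK and AV (0.30). Between tissues, RJ fruit lay 0.50 above AV leaf, the brightest leaf array (combined error 0.22), and RJ leaf lay 0.49 above SK fruit (0.24).

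The fruit arrays of AV and TM shared slide 2, and those of SK and RJ shared slide 3, while all leaf arrays lay on slide 1. Within slide 2 the AGO4A level was 3.06 higher in TM than in AV fruit. Within slide 3 it was 1.36 higher in RJ than in SK fruit, or 2.56-fold. The fruit difference that led to the choice of the gene was thus between arrays of 1 slide, while slide and tissue cannot be told apart.

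The values of the other 2 probes were close to background, and no order is read from them. A_96_P222409 lay at -5.80 in AV fruit, -5.73 in SK fruit, -4.76 in RJ fruit and -3.95 in TM fruit. By the software's weaker flag, for a positive and significant signal, it passed in RJ and TM fruit and in RJ leaf, 3 arrays in all. In AV fruit its processed signal was 74.5 ± 75.2, no larger than its own error. A_96_P222879 lay at -5.64, -5.09, -4.18 and -3.52 in the same order of fruit arrays, and passed the weaker flag on 6 arrays, AV fruit and AV leaf not among them. Its processed signal in AV fruit was 83.3 ± 84.2. In leaf, A_96_P222409 ran from -6.04 to -5.42 and A_96_P222879 from -5.38 to -4.83. The probes share the RNA of each array and are not replicates. Where each probe lies in the transcript is not given in the sources used here.

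The comparison of tissues asked whether AGO4A differed between ripe fruit and leaf over the accessions. It did not pass the test. AGO4A was -0.09 ± 0.54 in fruit minus leaf on the log2 scale (SE, 4 accessions, limma adjusted p = 0.902), with a 95% interval from -1.34 to 1.16. Differences of up to about that size in either direction lie within the interval and are therefore not excluded. The fruit spread by which the gene was chosen enters this SE. The wide interval and the missing call thus follow in part from the choice. Of the 4729 targets tested, where a target is a named gene or else a transcript or sequence of the array design, 54.6% passed at an adjusted p under 0.05 in limma, 28.9% lower and 25.7% higher in fruit. Under scaling by spike-in RNA 68.2% passed, 58.6% lower and 9.62% higher. The median over all targets was -0.02.

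By accession, AGO4A was lower in fruit than in leaf in AV by 1.86 (3.63-fold) and in SK by 0.84 (1.79-fold). It was higher in fruit in TM by 1.48 (2.80-fold) and in RJ by 0.86 (1.82-fold). Fruit and leaf arrays of AGO4A overlapped, where they did not overlap for 56% of targets, and 2 of 4 accessions lay on each side of 0. Of 4723 targets with values on all arrays, 65.3% had 1 direction in all accessions, and 3.13% had the signs of AGO4A, which were negative in AV and SK and positive in TM and RJ. The signs in AV and TM follow in part from how the gene was chosen. Scaling by spike-in RNA rests on 3 of the 10 spike-in probes, those well above background on every array. It placed AGO4A lower in fruit, at -1.39 ± 0.48 (limma adjusted p = 0.00668), and moved the median of all targets to -1.33. Relative to that median AGO4A lay at -0.07. In that scaling the differences of AV and SK were -3.16 and -2.67, and those of TM and RJ 0.03 and 0.22.

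**Figure D2:**
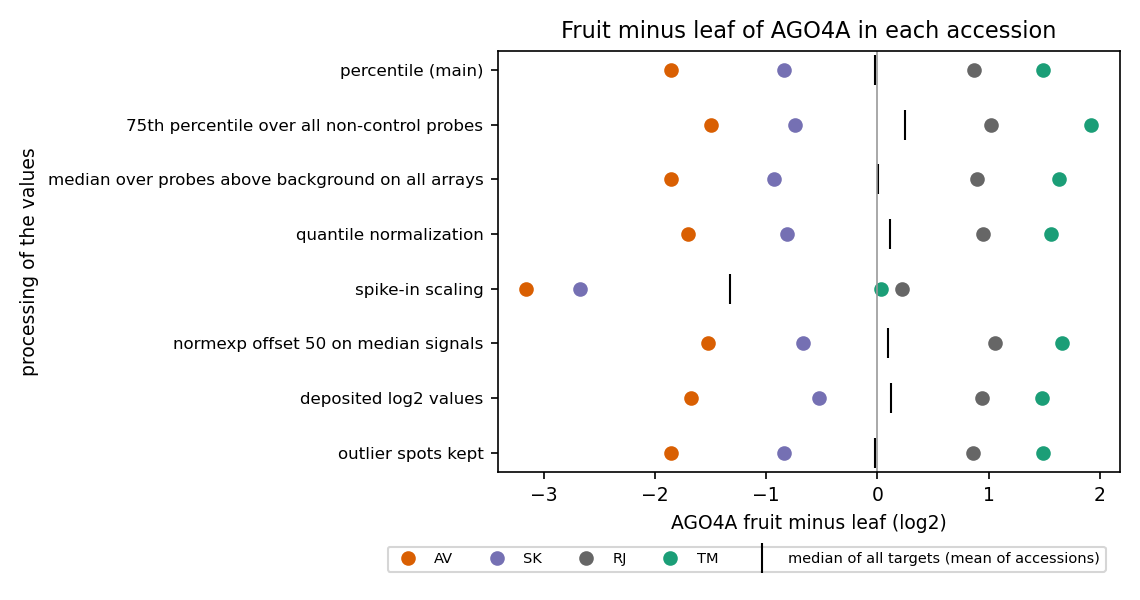
Fruit minus leaf of AGO4A (log2, horizontal axis) in each accession under 8 ways of processing the values (vertical axis), with the median over all targets as a bar. AV and SK lay below 0 and TM and RJ above 0 in each of the 8, with TM at 0.03 and the median at -1.33 under spike-in scaling.

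Set among the other targets, AGO4A combined a wide fruit spread, which the choice of the gene used, with a narrow leaf spread, which it did not. Of 4723 targets, 1.99% had a range over the fruit arrays as wide as that of AGO4A or wider, and the median range was 0.76. In leaf, 93.1% had a range as wide or wider, with a median of 0.95. Of the 328 targets with a leaf range as narrow as that of AGO4A, AGO4A included, the median fruit range was 0.67. A fruit range as wide was found in 2 of them, AGO4A itself and a sequence of the array design without a RefSeq match. Both limits were AGO4A's own values, and its fruit values led to its choice, so this count is a description and no test. Under spike-in scaling the leaf range of AGO4A was 1.61, with RJ leaf lowest and SK leaf highest, and 47.8% of targets had a leaf range as wide. The narrow leaf spread therefore rests on scaling by the array's own probes. The fruit range stayed between 2.81 and 3.23 under the 8 ways of processing, and AV, SK, RJ and TM kept their fruit order in each.

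**Figure D3:**
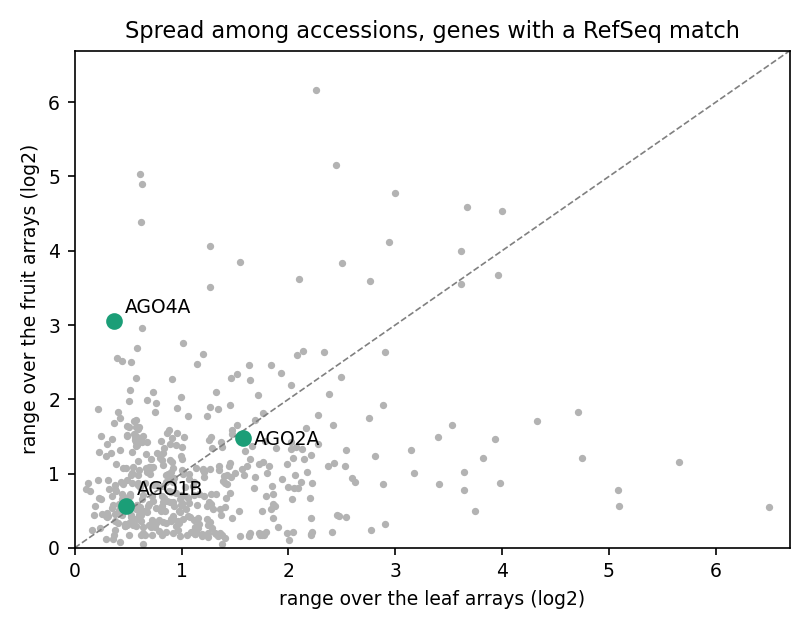
Range of the level over the 4 fruit arrays (log2, vertical axis) against that over the 4 leaf arrays (log2, horizontal axis) for 457 genes with a RefSeq match, each a grey point, with the line of equal ranges dashed. AGO4A lies at 3.06 in fruit and 0.37 in leaf, while AGO1B and AGO2A lie near the line.

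Ripening genes differed between the same fruit arrays. Of 15 measured genes of a list of ripening regulators, ethylene genes and fruit markers, 13 were lower in TM than in AV fruit, with a median of -1.38 and values from -4.77 for ACO1, an enzyme of ethylene synthesis, to 0.42 for the expansin gene EXP1. Over all targets 40.2% were higher in TM fruit, with a median of -0.16. A further description is that 0.529% were higher by as much as AGO4A or more, since AGO4A was chosen for this difference. On slide 3, where AGO4A was higher in RJ than in SK fruit, 10 of the 15 were higher in RJ and 5 lower, with a median of 0.21. Over all targets 38.2% were higher in RJ fruit, with a median of -0.07. The part of ripening progress in the AGO4A values was not tested. All 15 passed as higher in fruit than in leaf in limma, against 25.7% of all targets, and all 5 measured leaf markers of photosynthesis passed as lower, against 28.9%. A gene could enter through 1 tissue alone, as RIN, NOR, PsbQ and CAB4 did, with at most 4 arrays well above background. Its direction was then largely set by the filter, so these counts are no test of the lists. The single measured gene of the seed list, LEA14, was 0.13 lower in TM than in AV fruit. LEA14 was bright in leaf too, at 1.27 in TM leaf. Its fruit minus leaf difference was -0.12 ± 0.64 (limma adjusted p = 0.885), so it gives no measure of seed content. None of the 3 glandular trichome genes on the array was measured.

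Among 32 genes of small RNA and DNA methylation pathways in the RefSeq table, 11 were on the array by accession and 4 passed the filter, all of them Argonautes. AGO4B and AGO4D, the other genes of the list with AGO4 in their name, were not among the 11. Whether their transcripts bind the AGO4A probes was not tested. The other genes on the array, which are AGO5, AGO6, AGO10, DCL4 of the Dicer family, SGS3, a partner of RNA-dependent RNA polymerase, and the DNA methyltransferase genes DRM5 and MET1, had no probe well above background on all arrays of a tissue. Of the 4 measured genes 1 passed as lower in fruit, 0 as higher and 3 did not pass, a share close to the 28.9% of all targets that passed as lower. Their median was -0.26, beside -0.02 over all targets. Members had to be bright in at least 1 tissue to be measured.

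AGO1A, a tomato gene of the AGO1 group listed as LOC101247032, was the gene that passed. Its level was -1.99, -1.55, -1.48 and -1.79 in leaf of AV, TM, SK and RJ. In fruit it was -2.68, -3.18, -3.16 and -2.93 in the same order, so that every fruit array lay below every leaf array, as for 29.3% of all targets. It fell by 1.28 on the log2 scale in fruit (SE 0.30, limma adjusted p = 0.00707, lower in 4 of 4 accessions). The probe was well above background on 3 of 4 fruit arrays.

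AGO1B, a second gene of the AGO1 group, was at -0.43 ± 0.29 in fruit minus leaf and did not pass (limma adjusted p = 0.234). Its level ran from -1.77 to -1.29 in leaf and from -2.27 in AV to -1.71 in RJ in fruit. The fruit arrays of AGO1B were thus spread over 0.56, against 3.06 for AGO4A. AGO1B was called lower in limma with slide as a random block (adjusted p = 0.0168), where 39.0% of all targets were, and under spike-in scaling (adjusted p = 0.000565), where 58.6% were. The fit with slide as a block cannot separate slide from tissue. Its SE for AGO1B was 0.14, smaller than the 0.23 of the fit with no block.

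AGO2A lay at -2.45 in AV leaf, -1.998 in SK leaf, -0.97 in RJ leaf and -0.87 in TM leaf. In fruit it lay at -0.75 in SK, -1.14 in AV, -1.37 in RJ and -2.23 in TM. TM thus had the highest AGO2A level among leaf arrays and the lowest among fruit arrays, where it had the highest AGO4A level. Fruit minus leaf of AGO2A was 1.31 in AV, 1.25 in SK, -0.39 in RJ and -1.36 in TM, the sign opposite to that of AGO4A in each accession. Such opposite signs were found in 4.74% of all targets. Over the accessions AGO2A was at 0.20 ± 0.48 and did not pass (limma adjusted p = 0.742). Of its 4 probes, 3 were well above background on 0 arrays, so that the values rest on 1 probe.

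**Figure D4:**
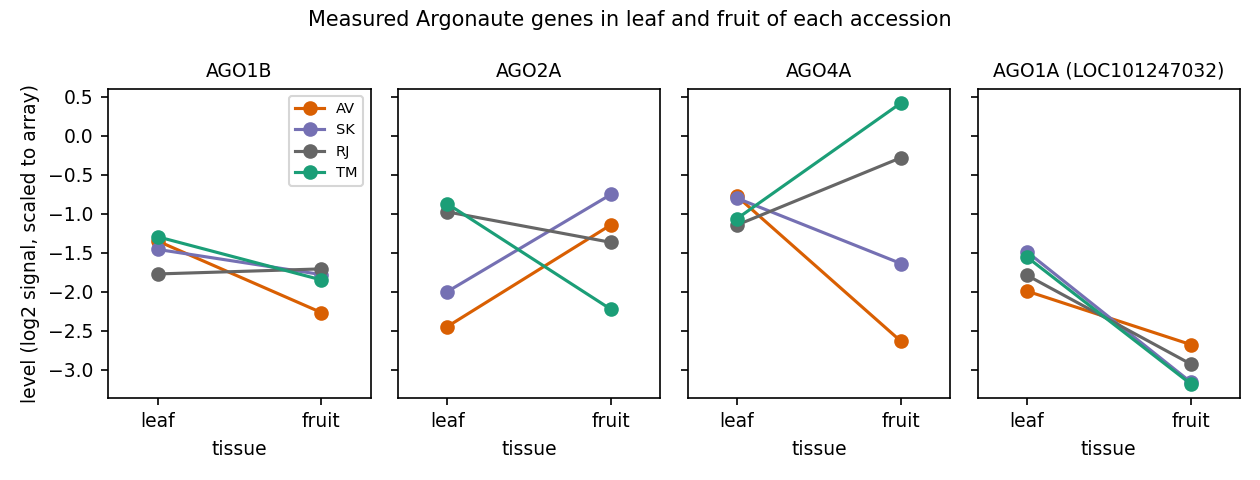
Levels of the 4 measured Argonaute genes (log2 signal scaled to the array, vertical axis) in leaf and fruit (horizontal axis), with a line for each accession. AGO4A lines fan out from leaf to fruit, those of AGO2A cross, and all lines of AGO1A (LOC101247032) fall by 0.69 to 1.67.

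The likeness of other genes to AGO4A was measured as the root mean square difference of log2 levels over the 8 arrays, after each gene was centred on its own mean. Arrays of a tissue share a slide or pairs of slides, and the fruit values that made AGO4A conspicuous dominate the measure. Among 366 genes with a name, the nearest were ICE1A (0.52), MAPKKKe (0.54), Hsp90-1 (0.56), BBR/BPC1 (0.64), CUL4 (0.66) and csn5 (0.67), where the median over genes was 1.38. These encode a transcription factor related to a cold response regulator of Arabidopsis, a protein kinase of a MAP kinase cascade, a chaperone, a factor related to proteins that bind GA repeats, a cullin of ubiquitin ligases and a subunit of the COP9 signalosome.

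Of these 6, the 5 that were well above background on every fruit array spread less widely over fruit than AGO4A. ICE1A lay at -3.32 in AV fruit, -2.75 in SK fruit, -1.66 in RJ fruit and -1.29 in TM fruit, the order of AGO4A, with a difference of 2.03 between TM and AV. Its leaf levels ran from -3.50 to -2.51. Hsp90-1, with 8 probes tested, lay at -0.54 in AV fruit, -0.55 in SK fruit, 0.35 in RJ fruit and 1.04 in TM fruit, and was thus near its leaf levels of -0.77 to 0.12 in AV and SK. BBR/BPC1 differed by 1.07 between TM and AV fruit, csn5 by 0.88 and CUL4 by 0.62. MAPKKKe was at -1.88 in TM fruit and not well above background in AV fruit. ICE1A was not well above background in RJ leaf, csn5 in SK leaf and BBR/BPC1 in SK and RJ leaf.

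**Figure D5:**
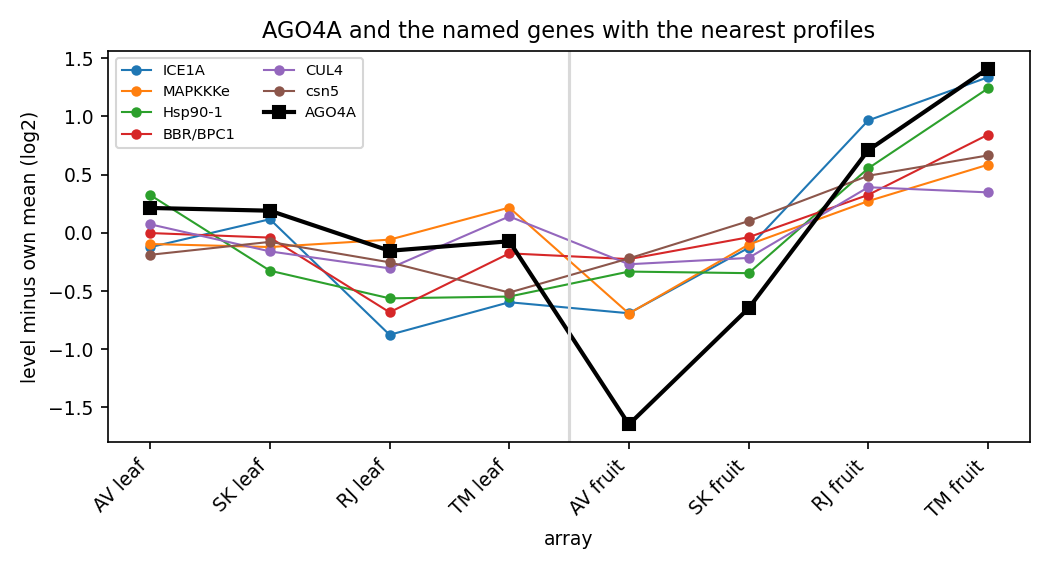
Levels minus the gene's own mean (log2, vertical axis) on the 8 arrays (horizontal axis) for AGO4A (black squares) and the 6 named genes with the nearest profiles. AGO4A dips lower than the others in AV fruit, and ICE1A and Hsp90-1 come closest to it in TM fruit.

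Over the 4 fruit arrays alone, the nearest named genes were SO (0.20), gad2 (0.35) and GLDH (0.36), the last of which encodes the final enzyme of ascorbate synthesis, with a median of 1.27 over genes. SO lay at -1.81 in AV, -1.32 in SK, 0.08 in RJ and 0.82 in TM fruit, 2.64 higher in TM than in AV. Unlike AGO4A, SO was spread over leaf too, from -3.34 in SK, where 1 of its 4 probes was well above background, to -1.01 in AV. The gene gad2 was well above background in RJ and TM fruit only and GLDH in TM fruit only, and both entered through leaf. Their fruit likeness to AGO4A therefore rests in part on background values.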

How the data were processed

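Leaf and fruit RNA was labelled with Cy3, per the labels. Per the file headers, Agilent's software (Feature Extraction 10.7.3.1) produced the intensity values, with other columns for flags and control classes. The authors deposited log2 values too (array medians from -0.07 to 0, centring unknown), used as an alternative. Apart from a constant for each array, their differences matched those of log2 processed signals within 0.02 for 99.9% of probes. A further 247 columns of that table were empty.

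Outlier spots were dropped and spots averaged, and the 75th percentile over 3091 probes above background on every array was subtracted. A probe entered, averaged per gene, if flagged well above background on each array of at least 1 tissue (6660 probes). The flag may be conservative, since 8503 tomato spots carry a control label, but their effect on the flag was not tested. On an array 17.3% to 24.4% of probes had the flag, and the number of arrays limits the precision. RefSeq (SLM_r2.1) gave the names.

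The tissue test used limma 3.58.1 (R 4.3.3) with accession as a fixed block, from the titles, and Benjamini-Hochberg adjustment over 4729 targets. Deviations of the same accession in both tissues had r from -0.16 to 0.03 across 4723 targets, which are not replicates. In simulated data of 4723 targets, 16 of 100 changes of 1 and 91 of 100 of 2 (log2) were recovered, with 7 false calls. No other target was changed there, whereas 54.6% of targets were called in the data. The adjustment was thus stricter in the simulation, and its shares do not carry over to the fit of the data. The text names AGO4A, pathway genes on the array and the nearest profiles (6 over all arrays, 3 over fruit). Alternatives changed scaling, background, filter, probes, block, prior and arrays. Spike-in scaling used 3 of the 10 spike-in probes. Members, lists and rules were chosen with earlier results of these data known.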

Additional observations from a re-analysis of the deposited data

Results flagged for a closer look

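The fruit minus leaf difference of AGO4A ran in opposite directions in different accessions, at -1.86 in AV and -0.84 in SK, and at 1.48 in TM and 0.86 in RJ. Each value comes from 1 fruit and 1 leaf array, so the difference between accessions was not tested.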

How the results depend on the processing

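Fruit minus leaf of AGO4A did not pass under any alternative other than spike-in scaling (-1.39, adjusted p = 0.00668), with adjusted p from 0.00668 to 0.997 over all of them. Its sign turned with the percentile over all probes (0.18), normexp (0.13), the deposited values (0.0525), no filter on dim probes (0.34) and, chosen after seeing the data, the 2 dim probes alone (0.55), and it ran from -0.61 without TM to 0.50 without AV when an accession was left out. It was also positive without SK (0.16). The TM minus AV difference in fruit, for which the gene was chosen, kept its sign in all 12 alternatives run for it, which is a description and no test. Some of these could not move it, since only 1 AGO4A probe was tested. They changed how tested probes were combined or kept only probes above background on all arrays. From the dim probes, which were not above background in AV fruit, it was 1.99. The TM minus AV difference in leaf turned to 0.07 with the deposited values. The targets called numbered 2584 of 4729 (54.6%), 4063 of 23713 without a filter (17.1%) and 709 of 2317 among probes above background on all arrays (30.6%). They numbered 3224 of 4729 under spike-in scaling (68.2%, 2769 lower and 455 higher). With an accession left out they ran from 2047 (43.3%) to 2820 (59.6%). Of the small RNA genes, 4 of 4 were called, all lower, under spike-in scaling (58.6% of all targets lower) and 2 with slide as a random block (39.0% lower). Among probes above background on all arrays, where AGO1A did not enter, 0 of 3 were called by limma (0 at an unadjusted p under 0.05). The share called of all targets was 30.6% there. Without a filter 1 of 11 was called, as lower, against 10.2% of all targets. With an accession left out the number of small RNA genes called stayed at 1 of 4, as lower, against 23.9% to 30.9% of all targets. The fit with slide as a block cannot separate slide from tissue. AGO1A was called in all 18 alternatives it entered. AGO2A was lower in fruit under spike-in scaling (-1.10), without AV (-0.17) and without SK (-0.15), against 0.72 without TM, and AGO1B was higher without a filter (0.17). The causes were not tested. The fit with no replicate block changed no call of these 4 genes. Of the 6 nearest genes, 5 were shared under quantile normalization and 6 under the other processings of the values. No probe of AGO4A is labelled as a control, so that alternative was not run. Each level of AGO4A rests on 1 spot.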
